A study of Mus musculus with 12 samples.

Results

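Complement genes were followed in the liver of mice with severe acute pancreatitis (SAP) and of control mice. The set holds 36 genes of the complement pathway and its regulators, found by symbol among the 55487 rows of the expression table. All 36 had a row, and 32 reached at least 1 TPM (a level per transcript length, scaled to the library) in at least 6 of the 12 libraries and were tested. They were divided by role into 7 genes of the classical pathway, 7 of the lectin pathway, 4 of the alternative pathway with C3, 7 terminal components, 9 regulators and 2 receptors.

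RNA of frozen livers was sequenced from Balb/c mice of wild type, 6 weeks old, in 6 SAP and 6 control samples. The SAP samples (numbers 10 to 15) had caerulein as treatment, a peptide that drives the pancreas to excess secretion, and the other samples (numbers 3 to 8) are labelled control. The design text speaks of a pair of mouse models. The sources used here do not give the model of each SAP sample, nor the dose and time of caerulein. Nor do the labels say whether each library is from its own animal, so the spread that enters the p-values may be technical.

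Complement is a cascade of plasma proteins, most of them made by hepatocytes, that marks microbes and damaged cells. The classical pathway starts from C1 on antibody, the lectin pathway from mannose-binding lectins, collectins and ficolins on sugars, and the alternative pathway amplifies deposited C3 with factor B, factor D and properdin. All routes meet at C3 and C5, after which C6 to C9 form the membrane attack complex, and soluble and membrane regulators restrain each step. Several of these proteins are known as acute-phase proteins, whose synthesis in liver changes during inflammation.

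Markers of hepatocytes were high in every library, with a summed level of 50934 to 66144 TPM in SAP and 90641 to 101360 TPM in control livers. Of these 7 markers 1 rose, 3 fell and 3 did not pass. Alb alone had 21995 to 32403 TPM of the sum in SAP and 57713 to 69833 TPM in control livers. Markers of pancreatic acinar cells summed to 0.56 to 1.45 TPM in SAP and 0.60 to 15.98 TPM in control livers, with medians of 0.92 TPM in SAP and 1.245 TPM in control livers. Nuclear-retained RNA divided the libraries across the groups: Xist was low in 4 SAP libraries (SAP 11, 13, 14 and 15) and in control 5, at 4.59 to 17.1 TPM, and high in SAP 10, SAP 12 and the other 5 controls, at 49.1 to 60.7 TPM. Malat1 split the same way, at 2.76 to 8.19 TPM in those 4 SAP libraries and 7.24 TPM in control 5. In the high libraries it had 37.2 to 40.11 TPM in SAP and 26.17 to 39.93 TPM in control livers. Among the high libraries Neat1 was lower in SAP, at 12.04 to 14.15 TPM against 17.73 to 27.96 TPM in control livers. The labels give no sex, and the cause of the split was not tested. With the split as a term, none of the 7 hepatocyte markers rose, 2 fell and 5 did not pass. Within the high libraries 1 of them rose, 2 fell and 4 did not pass. SAP 14 had the lowest Xist level and was also the lowest SAP library for 21 of the 32 tested members. For members, values with this split taken into account are given where it changed the call or the sign.

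Transcripts of C3, factor B, C8 alpha and several regulators rose in SAP livers, while most lectin pathway transcripts and C8 gamma fell. By limma on log2(TPM + 1), with Benjamini-Hochberg adjustment over all 11344 genes tested and a threshold of 0.05, 10 of the 32 tested members rose, 11 fell and 11 did not pass. That is 65.6% of the tested members, beside 44.5% of all genes tested (19.5% of all genes were higher and 25.0% lower in SAP). The groups did not overlap for 17 tested members, 9 higher and 8 lower, or 53.1%, beside 25.6% of all genes tested. A log2 change of at least 1 with the threshold passed was reached by 4 members (C3, C8a, Mbl2 and C8g), beside 7.98% of all genes. In whole liver a lower level cannot be told apart between fewer cells of a type and less RNA per cell.

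The members together held 1.67 to 1.86% of all TPM in SAP livers, with a median of 1.77%, against 1.07 to 1.23% in control livers, with a median of 1.13%. These ranges did not overlap. Without C3 the share was 1.02 to 1.09% in SAP and 0.767 to 0.839% in control livers. By role, the shares of the alternative pathway (0.769 to 0.927% in SAP, 0.393 to 0.488% in control) and of the regulators (0.676 to 0.699% in SAP, 0.426 to 0.458% in control) were higher in every SAP library than in any control library. Most of the alternative pathway share was C3, and without C3 it was 0.136 to 0.154% in SAP and 0.0873 to 0.0984% in control livers. The lectin pathway share was lower in every SAP library, at 0.0527 to 0.0671% against 0.0850 to 0.1098% in control libraries. For the classical and terminal genes the ranges of the groups overlapped. These shares are descriptions of the libraries and were not tested.

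**Figure D1:**
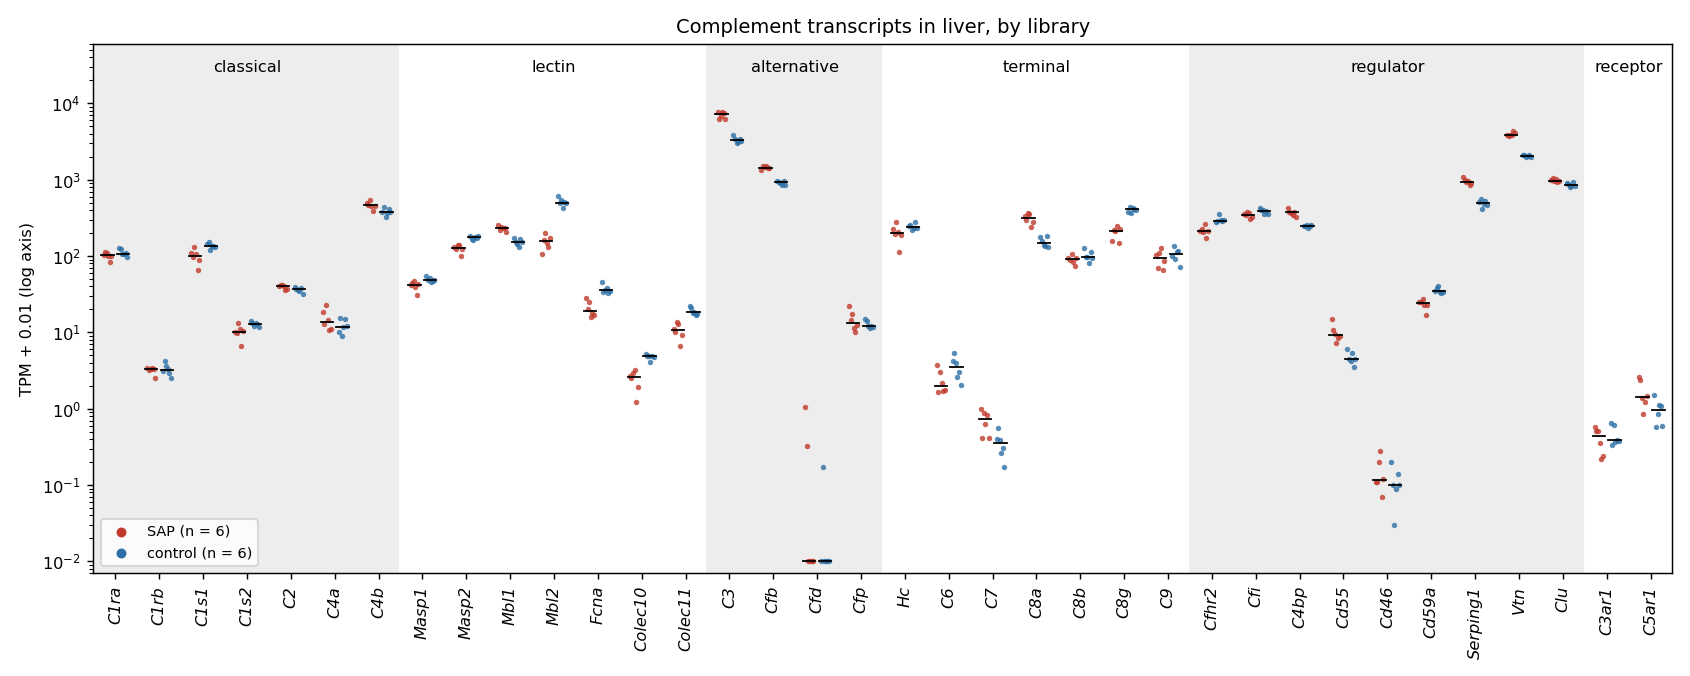
Level of each of the 36 complement genes in every library, as TPM + 0.01 on a log axis, by role; points are libraries (6 SAP in red, 6 control in blue) and black lines are group medians. C3 and Vtn stood highest in both groups, and Cfd lay at 0 TPM in 4 SAP and 5 control libraries.

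Levels spanned a wide range. In SAP livers C3 had the highest median (7174 TPM), followed by Vtn (3871 TPM) and Cfb (1440 TPM), and in control livers the order of these 3 was the same, with medians of 3282, 2061 and 921 TPM. Mbl2 was in place 14 of 36 in SAP livers and in place 5 in control livers, and C8a was in place 9 in SAP livers and in place 15 in control livers. The members that were not tested lay near 0. Cfd, the gene of factor D or adipsin, which is made mainly by adipocytes, had at most 1.05 TPM in SAP and 0.16 TPM in control livers. Cd46, a membrane cofactor that in mice is found mainly in testis, had 0.06 to 0.27 TPM in SAP and 0.02 to 0.19 TPM in control livers. C7, a terminal component, had 0.40 to 0.97 TPM in SAP and 0.16 to 0.55 TPM in control livers.

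Classical pathway transcripts differed little between the groups. Of the 7 genes, 1 rose, 2 fell and 4 did not pass, with a median log2 change of -0.02, beside -0.03 for all genes tested. The share that passed, 42.9%, was near the 44.5% of all genes tested. C4b, the gene of C4, which is cleaved by C1s and by the lectin pathway proteases, had 388 to 546 TPM in SAP livers with a median of 460.2 TPM, against 320.4 to 433 TPM in control livers with a median of 372 TPM. The groups overlapped, and the change on the log2 scale was 0.30 ± 0.09 (SE; limma adjusted p = 0.0140). C1s1, the gene of the C1s protease that cleaves C4 and C2, had 65.2 to 133 TPM in SAP livers with a median of 101 TPM, against 119 to 152 TPM in control livers with a median of 135 TPM. It fell by 0.48 on the log2 scale (SE 0.13; limma adjusted p = 0.0110), with overlapping groups and SAP 14 lowest.

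C1s2, a near copy of C1s1, fell by 0.33 (limma adjusted p = 0.0375). With the nuclear RNA split as a term neither C1s gene passed (limma adjusted p = 0.0808 for C1s1 and 0.189 for C1s2), nor within the libraries high in nuclear RNA (log2 changes of -0.21 and -0.16; limma adjusted p = 0.127 and 0.317). C1s2 also failed to pass when any of SAP 10, 11 or 15 or control 3, 4, 6 or 7 was left out. The C1r protease genes C1ra (-0.14) and C1rb (-0.02), the C2 gene (0.12) and C4a (0.26) did not pass (limma adjusted p = 0.200, 0.913, 0.175 and 0.258). With quantile normalization C2 passed, at 0.28 (limma adjusted p = 0.00293), and C1s1 did not (-0.16, limma adjusted p = 0.291). C4a had 10.9 to 23.0 TPM in SAP and 9.04 to 15.5 TPM in control livers, and it was past the threshold with the split as a term, at a log2 change of 0.57 (limma adjusted p = 0.00483), and within the libraries high in nuclear RNA, at 0.67 (limma adjusted p = 0.0181).

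The copies of these genes share most of their sequence, so their single levels are uncertain. In GENCODE M21 the longest C1rb transcript was 97.9% identical to that of C1ra over 2431 aligned bases, C1s2 was 95.9% identical to C1s1 over 2643 bases, and C4a was 95.9% identical to C4b over 5378 bases. The sources used here do not say how reads common to such copies were divided. On GRCm38 the C1 genes lie together on chromosome 6, with C1ra at 124512405 to 124523443, C1s1 at 124530345 to 124542359, C1rb at 124570294 to 124581171 and C1s2 at 124624625 to 124636085. C4b (34728380 to 34743882), C4a (34809092 to 34823464, annotated there as a processed transcript), Cfb (34856374 to 34862518) and C2 (34862604 to 34898265) lie side by side on chromosome 17. The annotated gene Gm20547 overlaps exons of both C2 and Cfb on the same strand, and it reached at most 4.62 TPM in any library.

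Lectin pathway transcripts fell, with Mbl1 as the exception. All 7 genes passed the threshold, 1 higher and 6 lower, with a median log2 change of -0.79, and the groups did not overlap for 6 of the 7. Of all genes tested 44.5% passed and 25.6% did not overlap. Mbl1 and Mbl2 encode mannose-binding lectins A and C, which bind sugars on microbes. Mbl2 had 107 to 200.1 TPM in SAP livers with a median of 156 TPM, against 429 to 606 TPM in control livers with a median of 503 TPM. Every SAP library was below every control library, and the log2 change was -1.75 ± 0.13 (SE; limma adjusted p = 4.23e-07). Mbl1 had 204 to 255 TPM in SAP livers with a median of 233 TPM, against 132 to 174 TPM in control livers with a median of 152 TPM. Here every SAP library was above every control library, and the log2 change was 0.59 ± 0.08 (SE; limma adjusted p = 3.38e-05).

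Within each library the log2 ratio of Mbl1 to Mbl2 was 0.24 to 1.25 in SAP and -1.93 to -1.61 in control livers. Mbl1 was thus the more abundant of the pair in all 6 SAP libraries and Mbl2 in all 6 control libraries. The difference of 2.34 was tested by an exact two-sided permutation test over the 6 SAP and 6 control libraries (p = 0.00216, which is the lowest possible with these numbers; adjusted p = 0.00433 over the 14 ratios tested). As Mbl1 was higher and Mbl2 lower in every SAP library than in any control library, this p was fixed by those levels. It adds no separate support. The difference was 2.45 among the libraries high in nuclear RNA and 2.47 among those low in it.

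The windows of 250 bases before to 50 bases after the annotated start of these genes (RefSeq on GRCm38.p6) are shown because the paralogs changed in opposite directions. They are chr14:41151206-41151505 for Mbl1 and chr19:30232678-30232977 for Mbl2, both on the plus strand. Capitals mark the stretch of 39 bases that a local alignment of the windows found in common, with 34 identical bases. It runs from 45 to 7 bases before the start in Mbl1 and from 79 to 41 bases before it in Mbl2.
Mbl1: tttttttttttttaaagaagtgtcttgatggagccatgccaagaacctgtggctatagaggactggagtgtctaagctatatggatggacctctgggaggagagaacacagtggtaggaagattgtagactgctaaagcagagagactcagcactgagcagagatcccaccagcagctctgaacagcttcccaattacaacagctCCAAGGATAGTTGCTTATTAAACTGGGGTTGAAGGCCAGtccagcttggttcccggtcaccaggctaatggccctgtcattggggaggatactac
Mbl2: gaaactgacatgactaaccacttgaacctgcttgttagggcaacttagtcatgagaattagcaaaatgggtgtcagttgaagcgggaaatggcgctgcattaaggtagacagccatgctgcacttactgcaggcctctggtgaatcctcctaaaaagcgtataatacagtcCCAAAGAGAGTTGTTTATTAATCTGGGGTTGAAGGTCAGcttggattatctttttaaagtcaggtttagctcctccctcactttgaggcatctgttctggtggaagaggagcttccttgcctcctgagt

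The other sugar-binding starters fell as well. Fcna, the gene of ficolin A, which in mice is made by macrophages of liver and spleen, had 15.9 to 27.9 TPM in SAP and 32.9 to 45.9 TPM in control livers (log2 change -0.83 ± 0.13 SE; limma adjusted p = 2.21e-04). Its change was -0.47 within the libraries high in nuclear RNA (limma adjusted p = 0.0290). Of 7 Kupffer cell markers 1 rose, 3 fell and 3 did not pass, their summed level was 104 to 251.1 TPM in SAP and 115 to 189 TPM in control livers, and none was at 0 in all libraries. The 1 that rose was Marco, which held 34.11 to 76.63 TPM of this sum in SAP and 0.43 to 1.52 TPM in control livers. With the nuclear RNA split as a term, and within the libraries high in nuclear RNA, 2 of the 7 rose, none fell and 5 did not pass. The markers that fell over all libraries (Clec4f, Timd4 and Vsig4) had log2 changes of -0.17, -0.15 and -0.10 within the high libraries and -0.69, -0.59 and -0.72 over all. The part of these cells in the Fcna result was not tested. Colec11, the gene of collectin 11, had 6.61 to 13.8 TPM in SAP and 16.9 to 22.2 TPM in control livers (-0.81 ± 0.14 SE; limma adjusted p = 4.10e-04). Colec10, whose product pairs with collectin 11, had 1.20 to 3.23 TPM in SAP and 4.04 to 5.21 TPM in control livers (-0.79 ± 0.14 SE; limma adjusted p = 5.17e-04).

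Both collectins are also used as markers of stellate cells. Of the 8 other stellate cell markers 4 rose, 2 fell (Reln and Ecm1) and 2 did not pass, and with the split as a term 3 rose, 2 fell and 3 did not pass. Their summed level was 185 to 233 TPM in SAP and 211 to 256 TPM in control livers. Ecm1 alone held 61.07 to 90.65 TPM of it in SAP and 93.35 to 123.28 TPM in control livers. Dcn, which is among the 4 that rose, held 85.73 to 111.02 TPM of it in SAP and 74.79 to 93.34 TPM in control livers. The part of these cells in the collectin result was not tested. The ratio of Colec10 to Colec11 did not pass (difference 0.02, exact permutation test, adjusted p = 0.736 over the 14 ratios). The serine proteases that bind these lectins fell less far. Masp2, which cleaves C4 and C2, had 99.5 to 141 TPM in SAP and 164 to 182 TPM in control livers (-0.47 ± 0.08 SE; limma adjusted p = 3.57e-04). It did not pass with quantile normalization (-0.13, limma adjusted p = 0.0969). Its exons overlap those of Tardbp on the opposite strand, and the sources used here do not say whether strand was used in counting. Masp1, which activates Masp2, had 31.0 to 47.0 TPM in SAP and 46.0 to 54.7 TPM in control livers (-0.27 ± 0.09 SE; limma adjusted p = 0.0248). It did not pass with the nuclear RNA split as a term (limma adjusted p = 0.0969), within the libraries high in nuclear RNA (-0.14, limma adjusted p = 0.268), with quantile normalization (-0.09, limma adjusted p = 0.255) or without control 3 (limma adjusted p = 0.0575).

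**Figure D2:**
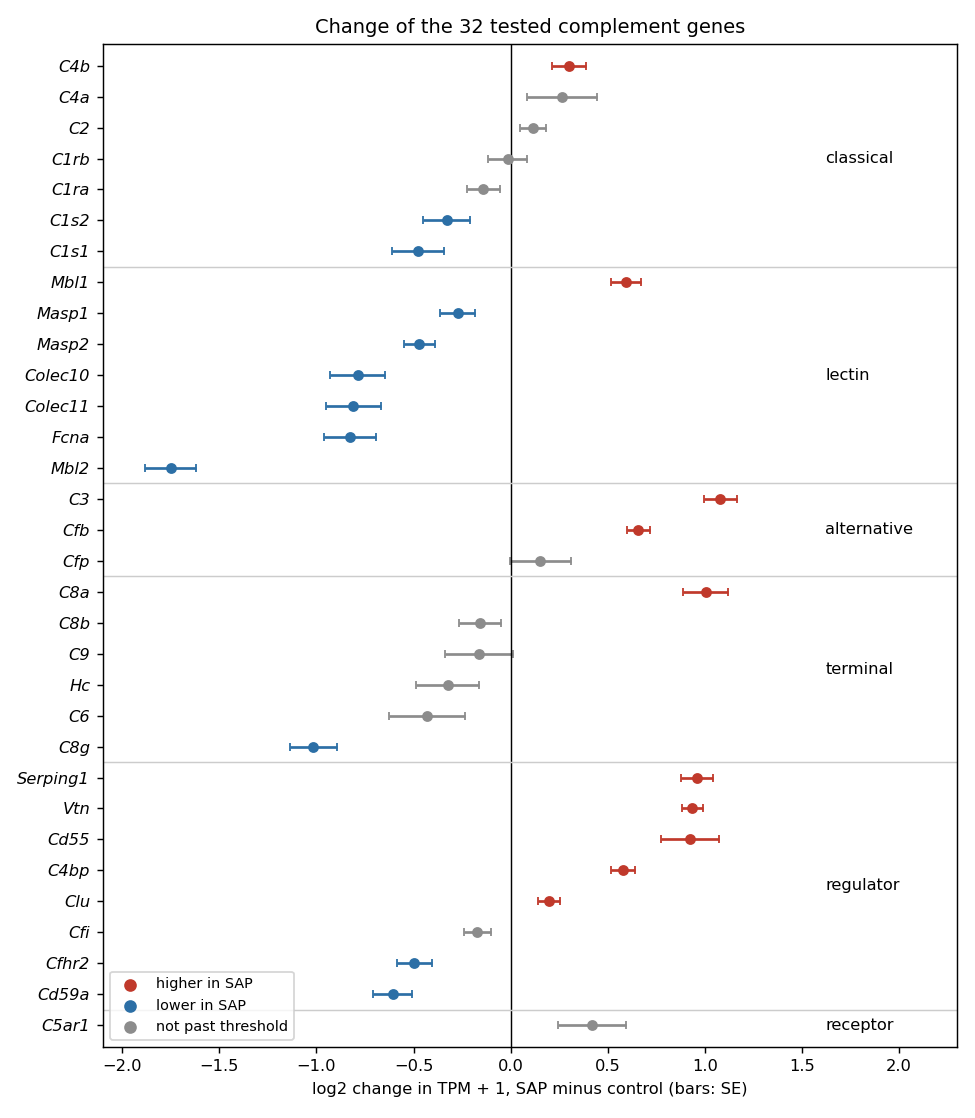
Log2 change of TPM + 1, SAP minus control, for the 32 tested complement genes, grouped by role and ordered by change within each; points are limma estimates from 6 SAP and 6 control libraries and bars are SE. Red points passed the threshold as higher in SAP (10 genes), blue as lower (11 genes), and grey did not pass (11 genes).

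C3 and factor B rose, while properdin did not pass. C3, the central protein of all pathways, had 6236 to 7703 TPM in SAP livers with a median of 7174 TPM, against 2995 to 3870.3 TPM in control livers with a median of 3282 TPM. Cfb, the gene of factor B, which carries the protease of the alternative pathway C3 convertase, had 1326 to 1521 TPM in SAP livers with a median of 1440.3 TPM, against 858 to 966 TPM in control livers with a median of 921 TPM. For both genes every SAP library lay above every control library. The log2 changes were 1.08 ± 0.09 (SE; limma adjusted p = 6.07e-07) for C3 and 0.66 ± 0.06 (SE; limma adjusted p = 1.74e-06) for Cfb. Cfp, the gene of properdin, which is made by leukocytes and stabilises that convertase, had 9.99 to 22.1 TPM in SAP and 11.2 to 15.0 TPM in control livers (0.15 ± 0.16 SE; limma adjusted p = 0.464). Within the libraries high in nuclear RNA Cfp was past the threshold, at 0.59 (limma adjusted p = 0.0131).

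The promoter window of C3, chr17:57228087-57228386 on the minus strand, is shown because C3 was the most abundant member and had the largest increase. Capitals mark a match to the C/EBP motif searched, TTGCNNAA on either strand, which begins 45 bases before the annotated start.
C3: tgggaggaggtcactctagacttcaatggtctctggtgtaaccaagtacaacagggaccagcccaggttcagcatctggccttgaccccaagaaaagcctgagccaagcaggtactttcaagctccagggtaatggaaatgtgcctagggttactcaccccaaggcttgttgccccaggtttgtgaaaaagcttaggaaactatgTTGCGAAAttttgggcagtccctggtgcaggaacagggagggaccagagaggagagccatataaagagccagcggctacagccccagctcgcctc

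Factor B and C2 are homologous proteases encoded by neighbouring genes, and they changed unequally. The log2 ratio of Cfb to C2 was 5.01 to 5.26 in SAP and 4.58 to 4.72 in control livers, a difference of 0.54 with no overlap (exact permutation test, two-sided, adjusted p = 0.00433 over the 14 ratios). Cfi, the gene of factor I, the protease that inactivates C3b and C4b, did not keep the same ratio to C3: their log2 ratio was -4.64 to -4.17 in SAP and -3.17 to -2.89 in control livers, a difference of -1.25 (exact permutation test, adjusted p = 0.00433). For Cfb to C2 and for Cfi to C3 the p was fixed by the group ranges of the single genes and adds no separate support. The ratio of Cfb to C3 was lower by 0.42 (exact permutation test, adjusted p = 0.00433), but this difference was 0.04 and not past the threshold with quantile normalization.

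Terminal components moved apart. Of 6 tested genes 1 rose, 1 fell and 4 did not pass, with a median log2 change of -0.24. The share that passed was 33.3%, beside 44.5% of all genes tested. Both called genes encode chains of C8, which is built from alpha, beta and gamma chains and opens the pore of the membrane attack complex. C8a, the alpha chain gene, had 242 to 363 TPM in SAP livers with a median of 313 TPM, against 130.1 to 183 TPM in control livers with a median of 150.1 TPM. C8g, the gamma chain gene, had 148 to 247 TPM in SAP livers with a median of 216 TPM, against 363 to 441 TPM in control livers with a median of 409 TPM. The groups did not overlap for either, and C8a was higher and C8g lower in all 6 SAP libraries. The log2 changes were 1.0 ± 0.12 (SE; limma adjusted p = 1.54e-05) for C8a and -1.02 ± 0.12 (SE; limma adjusted p = 1.76e-05) for C8g.

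C8b, the beta chain gene, had 73.5 to 107 TPM in SAP and 81.3 to 126 TPM in control livers, with overlapping groups (-0.16 ± 0.11 SE; limma adjusted p = 0.252). The log2 ratio of C8g to C8a was -1.08 to -0.30 in SAP and 1.07 to 1.63 in control livers. In SAP libraries the alpha chain transcript was thus the more abundant, and in control libraries the gamma chain transcript. The difference was -2.02 (exact permutation test, adjusted p = 0.00433), with -2.31 among the libraries high and -1.85 among those low in nuclear RNA. Since C8a and C8g each separated the groups, in opposite directions, that p was fixed by their levels and adds no separate support. The ratio of C8a to C8b was higher by 1.16 in SAP (exact permutation test, adjusted p = 0.00433). That p was likewise fixed by the group ranges of C8a and C8b. C8a (104815679 to 104876398) and C8b (104766317 to 104804548) are neighbours on chromosome 4, on opposite strands, while C8g lies on chromosome 2 (25498651 to 25501719).

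The promoter window of C8a, chr4:104876349-104876648 on the minus strand, is shown as that of the chain whose transcript rose. Capitals mark a match to the STAT motif searched, TTCNNNGAA, which begins 228 bases before the annotated start.
C8a: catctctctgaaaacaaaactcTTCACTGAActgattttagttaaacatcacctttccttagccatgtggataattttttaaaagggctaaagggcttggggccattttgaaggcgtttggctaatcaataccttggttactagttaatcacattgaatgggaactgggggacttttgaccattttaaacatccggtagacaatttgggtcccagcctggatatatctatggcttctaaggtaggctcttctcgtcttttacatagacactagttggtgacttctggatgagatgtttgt

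**Figure D3:**
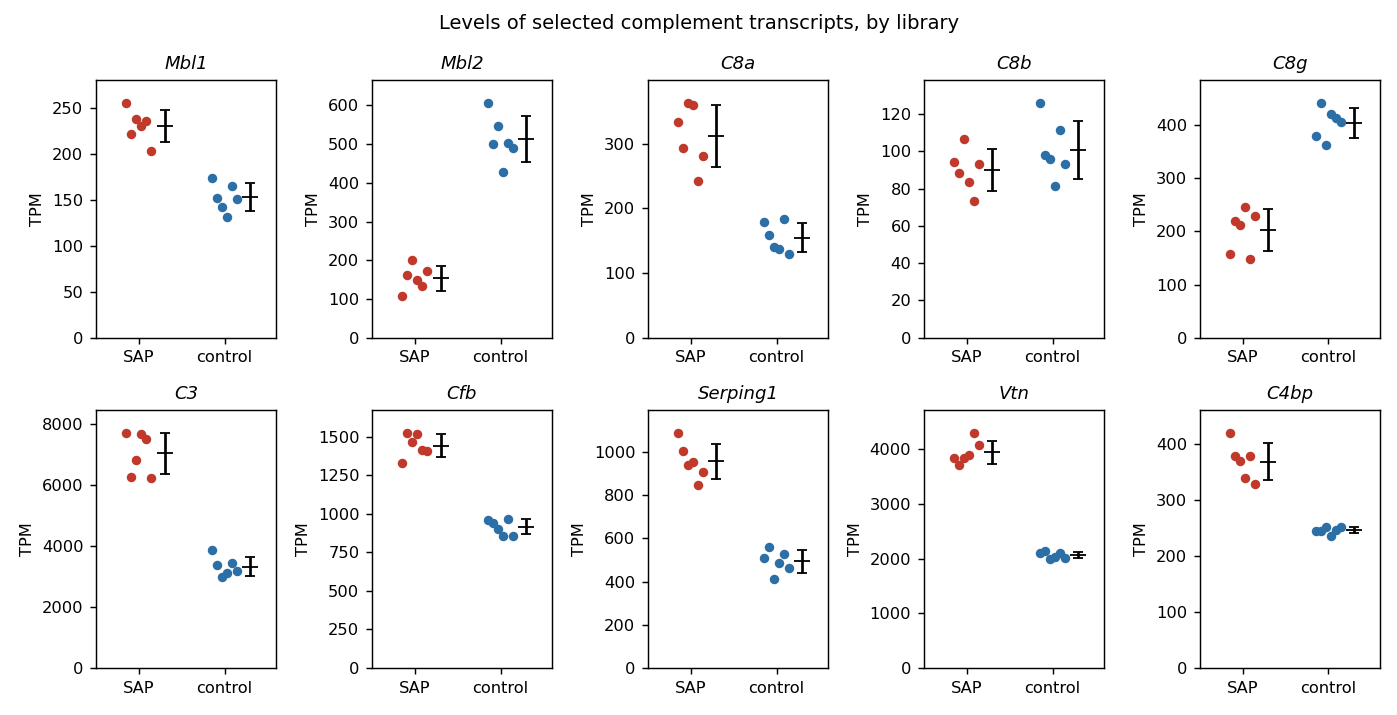
TPM in every library for 10 complement genes, with SAP left of control in each panel; points are libraries (n = 6 per group) and the black bars are mean and SD. SAP and control points do not overlap in 9 of the panels, and they overlap for C8b.

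The other terminal genes did not pass. Hc, which encodes C5 in mice, had 113 to 277 TPM in SAP and 219 to 279.9 TPM in control livers (-0.32 ± 0.16 SE; limma adjusted p = 0.124). C6 had 1.63 to 3.75 TPM in SAP and 2.05 to 5.31 TPM in control livers (-0.43 ± 0.19 SE; limma adjusted p = 0.0875), and C9, whose copies line the pore, had 66.6 to 128 TPM in SAP and 71.5 to 134 TPM in control livers (-0.16 ± 0.18 SE; limma adjusted p = 0.479). SAP 14 was the lowest library for Hc and C9. Hc passed without SAP 12 (limma adjusted p = 0.0336), and C6 without SAP 10 (0.0334) or control 8 (0.0361, all by limma). Within the libraries high in nuclear RNA the log2 changes were 0.00 for Hc, 0.03 for C6 and 0.01 for C9. The ratios of Hc to C9 and of C6 to C9 did not pass (exact permutation tests, adjusted p = 0.380 and 0.187).

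Most regulators changed, more of them upward. Of 8 tested genes 5 rose, 2 fell and 1 did not pass, with a median log2 change of 0.39, and the groups did not overlap for the 7 that passed. These are 87.5% of the tested regulators, while of all genes tested 44.5% passed and 25.6% did not overlap. Vtn, the gene of vitronectin, a plasma protein that keeps terminal complexes from entering membranes, had 3705 to 4291 TPM in SAP livers with a median of 3871 TPM, against 1991 to 2133 TPM in control livers with a median of 2061 TPM. Serping1, the gene of C1 inhibitor, which blocks C1r, C1s and the lectin pathway proteases, had 847 to 1087 TPM in SAP livers with a median of 947 TPM, against 413 to 559.9 TPM in control livers with a median of 498 TPM. Every SAP library was above every control library for both. The log2 changes were 0.94 ± 0.06 (SE; limma adjusted p = 6.19e-08) for Vtn and 0.96 ± 0.08 (SE; limma adjusted p = 1.17e-06) for Serping1.

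C4bp, the gene of the C4b-binding protein, which restrains the convertase of the classical and lectin pathways, had 329 to 419.7 TPM in SAP and 236 to 252 TPM in control livers (0.58 ± 0.06 SE; limma adjusted p = 7.96e-06). Cd55, the decay-accelerating factor of cell membranes, had 7.25 to 14.7 TPM in SAP and 3.49 to 6.11 TPM in control livers (0.92 ± 0.15 SE; limma adjusted p = 2.42e-04). Clu, the gene of clusterin, another inhibitor of terminal complexes, had 946 to 1052 TPM in SAP and 805 to 921 TPM in control livers (0.20 ± 0.06 SE; limma adjusted p = 0.0137). Clu did not pass within the libraries high in nuclear RNA (0.15, limma adjusted p = 0.167).

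Downward changes were found for Cd59a and Cfhr2. Cd59a, whose membrane protein blocks the last step of pore formation, had 16.9 to 27.4 TPM in SAP and 32.8 to 40.1 TPM in control livers (-0.61 ± 0.10 SE; limma adjusted p = 2.67e-04). The membrane inhibitors Cd55 and Cd59a thus changed in opposite directions. Cfhr2 had 172 to 259 TPM in SAP and 282 to 360.2 TPM in control livers (-0.50 ± 0.09 SE; limma adjusted p = 6.49e-04), but it did not pass with quantile normalization (-0.12, limma adjusted p = 0.238). Cfi had 301.1 to 378 TPM in SAP and 355 to 428 TPM in control livers, and did not pass (-0.17 ± 0.07 SE; limma adjusted p = 0.0622). It passed without SAP 12 (limma adjusted p = 0.0378) or control 6 (0.0476, also by limma).

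C1 inhibitor and C4b-binding protein were also set against their targets. The log2 ratio of Serping1 to C1s1 was 2.82 to 3.68 in SAP and 1.79 to 1.95 in control livers, a difference of 1.43 (exact permutation test, adjusted p = 0.00433). The ratio of C4bp to C4b was higher by 0.28 with overlapping groups (exact permutation test, adjusted p = 0.0303), and was 0.04 higher among the libraries low in nuclear RNA. In all, 11 of the 14 ratios passed the threshold and 7 did not overlap between the groups. For all of those 7 except Cfb to C3, the lack of overlap followed from the group ranges of the single genes. Their p-values were fixed by those levels and add no separate support. The remaining ratios that passed had overlapping groups: C1ra to C1s1 was higher by 0.34 (exact permutation test, adjusted p = 0.0227), Masp1 to Masp2 by 0.20 (adjusted p = 0.0303) and C4b to C2 by 0.18 (adjusted p = 0.0496). Among the libraries high in nuclear RNA the differences of these 3 were 0.13, 0.24 and 0.24, and among those low in it 0.33, 0.03 and 0.36. With 1 library left out, the ratios C4bp to C4b, Masp1 to Masp2 and C4b to C2 did not pass in 6, 7 and 9 of the 12 cases; for C4bp to C4b these were SAP 10, 11 and 14 and control 4, 6 and 7.

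**Figure D4:**
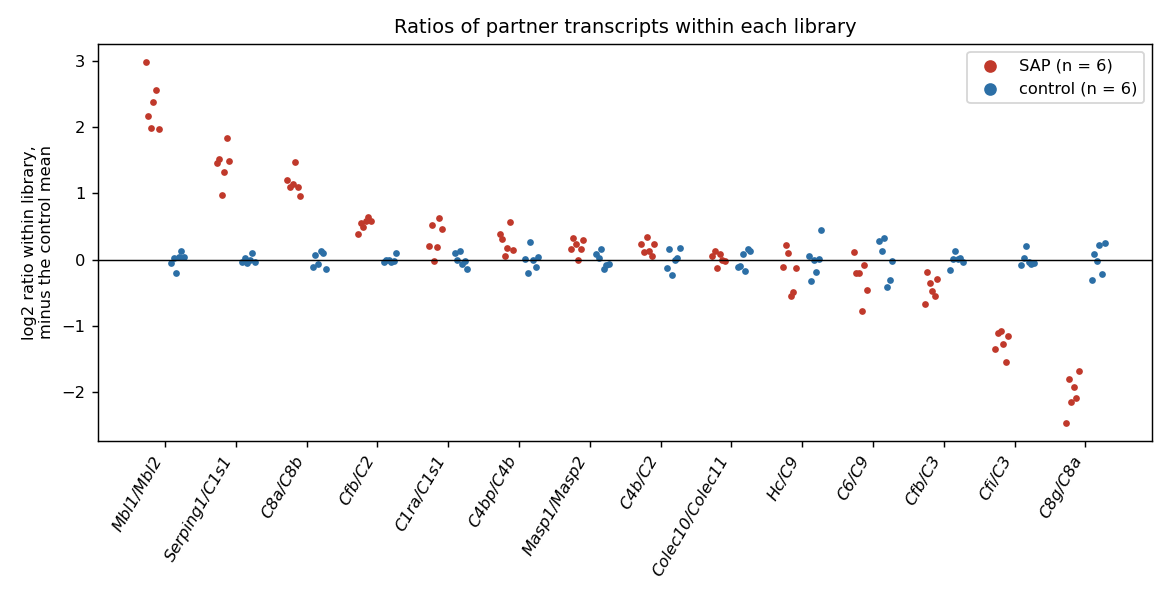
Log2 ratio of 14 pairs of partner transcripts in each library, minus the mean of the control libraries, with SAP (red, n = 6) left of control (blue, n = 6) for each pair. The groups do not overlap for 7 pairs, with mean differences from 2.34 for Mbl1/Mbl2 to -2.02 for C8g/C8a.

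The promoter window of Vtn, chr11:78498870-78499169 on the plus strand, is shown because Vtn had the smallest adjusted p among the members. Capitals mark matches to CTGGGAA, the core of the IL-6 response element of acute-phase genes, on either strand, at 12 and 38 bases from the start, and to the STAT motif at 36 bases. The last pair overlaps.
Vtn: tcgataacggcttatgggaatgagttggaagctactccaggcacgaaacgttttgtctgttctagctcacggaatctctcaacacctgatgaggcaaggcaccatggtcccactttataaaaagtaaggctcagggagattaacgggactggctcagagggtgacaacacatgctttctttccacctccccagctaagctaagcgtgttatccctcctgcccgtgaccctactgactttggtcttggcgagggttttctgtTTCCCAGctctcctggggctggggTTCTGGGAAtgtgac

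Windows were at hand for 27 of the 36 members, 29 windows in all, and the same 3 motifs were searched on both strands of all 32851 windows. The STAT motif TTCNNNGAA was in 8 of the 29 member windows and in 8.30% of all windows. CTGGGAA was in 9 of the 29 and in 11.1% of all windows, and the C/EBP motif TTGCNNAA was in 5 of the 29 and in 10.8% of all windows. Among the 6 windows of members that rose the counts were 2, 1 and 1, and among the 11 windows of members that fell they were 3, 4 and 1. Both kinds of member thus held matches. Some matches overlap, since CTGGGAA can lie within the STAT motif, as in the windows of Vtn, Masp2, C7 and Cfhr2. A match is a description of the letters and not a binding site.

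The anaphylatoxin receptors were near the limit of these data. C5ar1, the receptor of C5a on neutrophils and macrophages, had 0.83 to 2.57 TPM in SAP livers with a median of 1.40 TPM, against 0.56 to 1.48 TPM in control livers with a median of 0.96 TPM. The groups overlapped and it did not pass (0.42 ± 0.17 SE; limma adjusted p = 0.0660), but it passed with TMM-like scaling (0.0342), quantile normalization (0.0400), and without SAP 13 (0.0246) or control 3 (0.0411, all limma adjusted p). C3ar1, the C3a receptor, had 0.21 to 0.57 TPM in SAP livers with a median of 0.425 TPM, against 0.32 to 0.63 TPM in control livers with a median of 0.375 TPM, and was not tested. Beside these values, 3 of the 4 tested neutrophil markers rose and 1 did not pass. The other 5 of the 9 listed were not tested and reached at most 0.92 TPM. Retnlg, which rose, met the filter only through the SAP libraries, with at most 0.90 TPM in control livers. The list summed to 37.2 to 112 TPM in SAP and 4.45 to 17.4 TPM in control livers. Of this sum S100a8 held 9.04 to 36.43 TPM in SAP and 1.11 to 6.24 TPM in control livers. S100a9 held 23.85 to 67.54 TPM in SAP and 1.69 to 7.81 TPM in control livers. Monocyte markers summed to 60.4 to 95.9 TPM in SAP and 42.1 to 62.5 TPM in control livers, with 3 of 4 tested higher and 1 lower (Lyz2, which did not pass within the libraries high in nuclear RNA, limma adjusted p = 0.243). Among these 3, Itgam met the filter only through the SAP libraries, with at most 0.52 TPM in control livers. The part of these cells in the receptor and properdin levels was not tested.

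Other genes of the pathway, 25 by a list of known complement genes, showed both directions too. A row was found for 24, and 17 were tested, of which 4 rose, 5 fell and 8 did not pass, with a median log2 change of -0.05. Of all genes tested 44.5% passed. With the split as a term 3 of them fell, since Cr1l and Vsig4 no longer passed. The 7 that were not tested reached at most 0.89 TPM. Itgam, a chain of complement receptor 3 on neutrophils and monocytes, had 2.49 to 5.49 TPM in SAP livers with a median of 4.24 TPM, against 0.12 to 0.52 TPM in control livers with a median of 0.19 TPM (2.0 ± 0.15 SE; limma adjusted p = 4.07e-07). It is among the 4 that rose. No control library reached 1 TPM, so Itgam met the filter only through the SAP libraries, and its p is not independent of that filter. Cd59b, the other mouse Cd59 gene, had 0.98 to 8.33 TPM in SAP livers with a median of 4.34 TPM, against 11.4 to 14.9 TPM in control livers with a median of 14.4 TPM (-1.55 ± 0.28 SE; limma adjusted p = 4.93e-04), the same direction as Cd59a.

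The chains of C1q, which macrophages make, did not pass. C1qa had 41.4 to 90.9 TPM in SAP and 47.1 to 72.2 TPM in control livers, C1qb 36.1 to 71.3 TPM in SAP and 38.2 to 54.9 TPM in control livers, and C1qc 28.7 to 66.3 TPM in SAP and 33.8 to 46.4 TPM in control livers. Their log2 changes lay between -0.07 and -0.04 (limma adjusted p = 0.769, 0.815 and 0.877). With the nuclear RNA split as a term they were 0.10, 0.15 and 0.18, and within the libraries high in nuclear RNA 0.39, 0.42 and 0.47, without passing (limma adjusted p = 0.182, 0.1001 and 0.0820). In each of them the highest library was SAP 10.

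**Figure D5:**
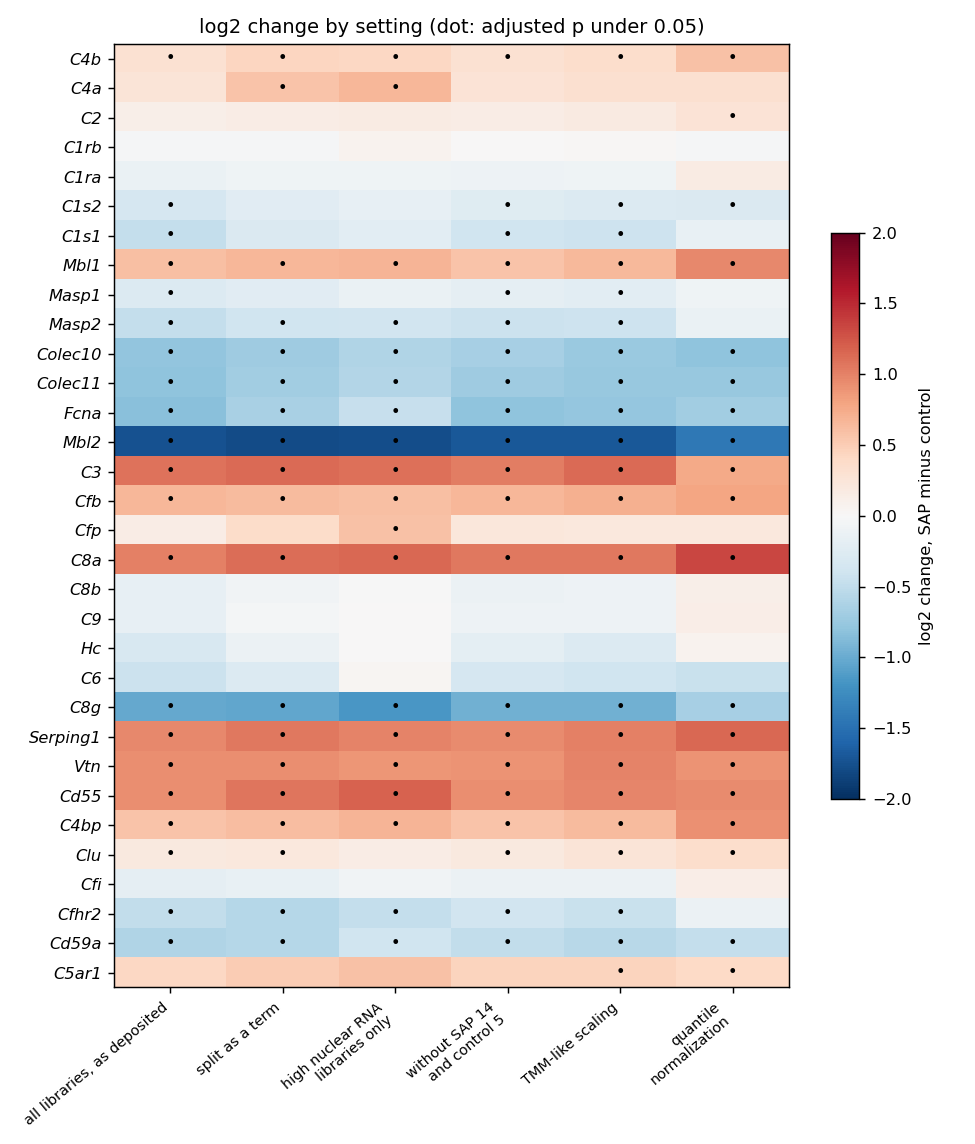
Log2 change, SAP minus control, of the 32 tested complement genes under 6 settings: all libraries as deposited, the nuclear RNA split as a term, the libraries high in nuclear RNA alone, without SAP 14 and control 5, TMM-like scaling and quantile normalization. A dot marks limma adjusted p under 0.05; the rows of C3, Cfb, C8a, Serping1, Vtn, Cd55 and C4bp stay red and those of Mbl2, C8g and both collectins stay blue across the settings.

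Of the 21 members that passed, 15 kept their direction and passed under every setting and every left-out library in which they were tested. They are C3, Cfb, C4b, Mbl1, C8a, C4bp, Cd55, Serping1 and Vtn, which were higher in SAP, and Mbl2, Fcna, Colec10, Colec11, C8g and Cd59a, which were lower. With the split by nuclear RNA as a term 11 members were higher and 8 lower, and the same numbers were found within the libraries high in nuclear RNA, which hold 2 SAP and 5 control libraries. Without SAP 14 and control 5 there were 10 higher and 11 lower. The libraries low in nuclear RNA hold a single control, so no test was made among them.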

How the data were processed

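Liver RNA of 6 SAP and 6 control samples was taken as 1 table of the whole series, with 12 sample columns matched to the samples by title and 0 left over. The deposited values are taken to be TPM made by the authors: no header names the unit, and the libraries sum to between 993412 and 995793. Since TPM does not carry depth, the depth is unknown and intervals for counting error cannot be given. The tool edgeR is named per the submitters' processing notes, without its role. The sources used here give no aligner, build or annotation.

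Rows with at least 1 TPM in at least 6 libraries (11344 of 55487) were fitted with limma 3.58.1 in R 4.3.3 on log2(TPM + 1), with group as the only term and an empirical Bayes trend; p-values are two-sided and adjusted by Benjamini-Hochberg over all genes tested at 0.05. Changes on this scale understate those of low genes. For a repeated symbol the row with the highest median was used, which touched no member. Ratios within a library were tested with exact permutation tests in scipy 1.17.1; a ratio with C3ar1 was not tested because C3ar1 was under the filter. The split by nuclear RNA was set at the widest gap of log2 Xist. Positions come from GENCODE M21 on GRCm38 and promoter windows from RefSeq on GRCm38.p6. The fit was tested on simulated data, and figures were drawn with matplotlib 3.10.9.

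The members, lists, ratios and alternatives were chosen with earlier results of these data known. The rule for named genes gave full values to members past the threshold with a log2 change of at least 1 in size, to the pair with the smallest adjusted p in each role and to both receptors; of the other complement genes it took those past the threshold with such a change and the C1q chains. Values of 1 other complement gene are not reported here, although it is part of the counts.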

Additional observations from a re-analysis of the deposited data

Results flagged for a closer look

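Each group of 6 libraries was searched for a lowest or highest value whose gap to its neighbour took up most of the range of the group (above Dixon's critical value for 6 samples), for the 32 tested members, 64 groups in all. This picked out 3 values, and chance alone picks out about 1 in 20 groups. C1rb was at 2.52 TPM in SAP 15, below the other SAP libraries, which began at 3.24 TPM. Colec10 was at 4.04 TPM in control 6, below the other controls, which began at 4.79 TPM. Cfhr2 was at 360.2 TPM in control 5, above the other controls, which reached 295.8 TPM. Without that library Cfhr2 was still lower in SAP and past the threshold.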

How the results depend on the processing

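No paired analysis was possible because the SAP and control samples share no replicate numbers. Leaving out 1 library at a time gave 10 to 11 members higher and 9 to 13 lower, against 10 and 11 with all libraries. With quantile normalization 12 were higher and 7 lower; the role medians were then 0.17 (classical), 0.75 (alternative), 0.0917 (terminal) and 0.63 (regulators), and the cause was not tested. That scaling turned the sign of 5 members that had not passed (C1ra 0.17, Hc 0.0643, C8b 0.12, C9 0.13, Cfi 0.14). Within the libraries high in nuclear RNA the medians were -0.47 (lectin) and 0.00916 (terminal), 1830 of all genes were lower against 2832, and the signs of C1rb (0.0674), Hc (0.00339), C6 (0.0319) and C9 (0.0149) turned. C1rb also turned with TMM-like scaling (0.0283), without SAP 14 and control 5 (0.00125), and ranged from -0.0707 to 0.0430 over the left-out libraries. No scaling moved the median of all genes by over 0.1 on the log2 scale (-0.03 as deposited, 0.02 with TMM-like scaling, 0.02 with quantile normalization). Single members moved by more with quantile normalization, among them Mbl1 (from 0.59 to 0.96) and Masp2 (from -0.47 to -0.13).

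Of the ratios, quantile normalization gave 0.0434 for Masp1 to Masp2 (adjusted p = 0.614, exact permutation test), 0.0359 for Cfb to C3, -0.0450 for Colec10 to Colec11 and -0.57 for C6 to C9, which then passed. Colec10 to Colec11 was -0.15 with a pseudocount of 0.1, and -0.0108 to 0.0561 over the left-out libraries. C4b to C2 did not pass with that pseudocount (0.18) or without SAP 14 and control 5 (0.16), and ranged from 0.14 to 0.22 over the left-out libraries, while C4bp to C4b ranged from 0.22 to 0.33 and Masp1 to Masp2 from 0.17 to 0.24; these 3 failed to pass in 9, 6 and 7 of the 12 cases (C4b to C2 passed without SAP 14, control 4 or control 8, and Masp1 to Masp2 without SAP 13, SAP 14, control 3, control 4 or control 5). Of the other complement genes, 4 higher and 5 lower with all libraries, 1 was higher with a mean of at least 5 TPM, and 3 were lower with the split as a term, within the libraries high in nuclear RNA, and without SAP 14 and control 5. The highest mean for repeated symbols changed no member. Alternatives for counts were not run, since the unit is TPM.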
